A study of Drosophila melanogaster with 2 samples.

Results

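The genes described are the Mediator, TFIID, general initiation factor and RNA polymerase II subunit genes of Drosophila melanogaster, taken by symbol. A gene was included if it was protein-coding in the Ensembl annotation and its symbol began with MED or Taf and a number, with TfII, or with Polr2. This gave 62 of the 13968 protein-coding genes on the chromosome arms, made up of 25 Mediator, 15 Taf, 9 TfII and 13 Polr2 genes. The rule uses symbols and annotation and no peak value. The measure is the position of B-H2-GFP peaks. A gene was counted as having a peak when a peak summit lay within 1 kb of one of its transcription start sites (TSSs).

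The data came from chromatin immunoprecipitation followed by sequencing (ChIP-seq) of whole embryos of a transgenic line stably carrying the homeodomain protein B-H2 with a C-terminal green fluorescent protein (GFP) tag. The strain is labelled B-H2-GFP, the embryos were of mixed sex and 6 to 22 hours old, and chromatin was sonicated to 200 to 800 bp. There was 1 group of 2 biological replicates, numbered 1 and 3, with no second condition or genotype. The free-text description calls both libraries an input control, whereas the assay and antibody labels give ChIP-seq of B-H2. The values are reported under the latter labels, and nothing in the lists settles the conflict. Whole embryos mix all tissues, so a peak cannot be assigned to a cell type, and the number of animals behind a replicate is not given.

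Transcription of protein-coding genes starts when RNA polymerase II assembles with the general factors TFIIA, TFIIB, TFIID, TFIIE, TFIIF and TFIIH on a core promoter. TFIID holds the TATA-binding protein and the TBP-associated factors (TAFs) and recognises the promoter, and Mediator bridges sequence-specific factors and the polymerase. All cells need these complexes, so most of their genes are regarded as housekeeping genes. B-H2 belongs to the Bar family of homeodomain proteins, known for roles in eye, sense organ and neuron development.

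The authors' set of peaks that passed the irreproducible discovery rate (IDR, which scores whether a peak holds its place in the ranking from one replicate to the other) held 4277 peaks. These were the 4277 peaks of highest signal in the pooled list. The pooled list and each replicate list held 30000 peaks, called permissively. Signal is the value the authors' peak caller gave to each peak, and rank is its place by signal within 1 list, with 1 the strongest. Signal scales differ between lists, so ranks are the values to set side by side. Read depth is unknown, and all 3 permissive lists were called against the same control alignment.

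An IDR summit lay within 1 kb of a TSS for 27 of the 62 genes, or 43.5% (exact 95% interval 31.0% to 56.7%), against 26.9% of all protein-coding genes. Intervals here cover the counting of genes or peaks only. The share was 55.6% for the TfII genes (5 of 9, interval 21.2% to 86.3%) and 46.2% for the Polr2 genes (6 of 13, 19.2% to 74.9%). It was 40% for both the Mediator genes (10 of 25, 21.1% to 61.3%) and the Taf genes (6 of 15, 16.3% to 67.7%). Taf10 and Taf10b share 1 peak, so the 6 Taf genes rest on 5 peaks and the 27 members on 26. The intervals treat genes as independent. The 4 intervals overlap one another over most of their length, so no order among the complexes is resolved at these numbers. Each interval of a single complex also includes the share of all genes.

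The replicates gave similar shares when each was cut to its own 4277 strongest peaks. In replicate 1, 28 members had such a summit, or 45.2%, against 26.6% of all genes. In replicate 3 there were 32 members, or 51.6%, against 27.5% of all genes. Between replicates 1 and 3 the Mediator count went from 11 to 12, the Taf count from 6 to 8 and the Polr2 count from 6 to 7, while the TfII count was 5 in each. Both replicates had a summit among their strongest 4277 at 26 members, or 41.9%, against 22.0% of all genes.

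**Figure D1:**
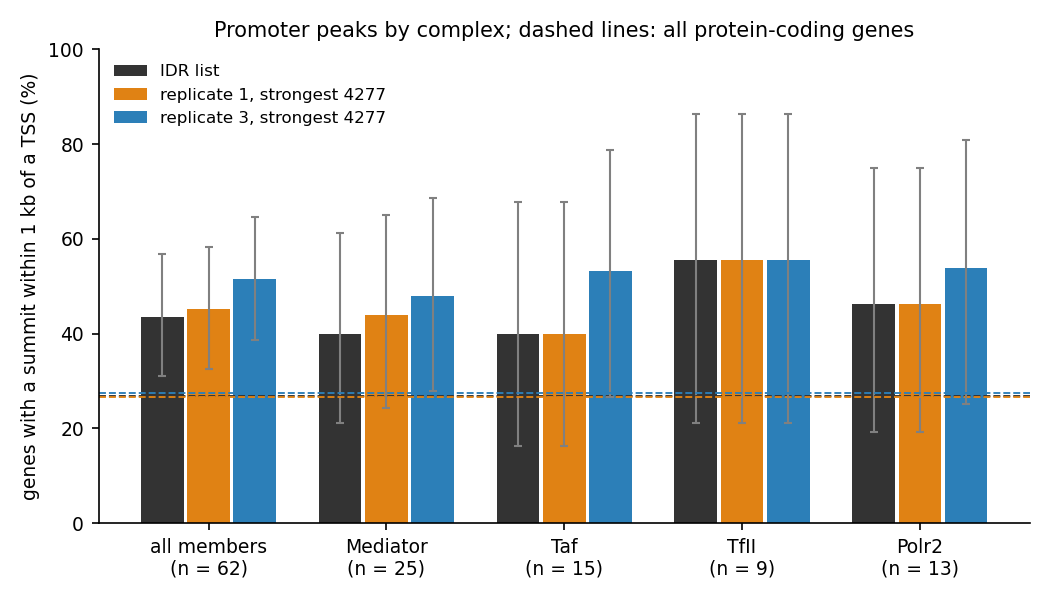
The bars give the percentage of genes in each set with a summit within 1 kb of a TSS, for the IDR list and for the 4277 strongest peaks of each replicate. Error bars are exact 95% intervals for counting and dashed lines mark all protein-coding genes. All member bars stand above the lines at 26.9%, 26.6% and 27.5%, with intervals of the single complexes that overlap.

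Among the polymerase II genes, the strongest peak belonged to Polr2B, which encodes the second largest subunit. Its IDR peak, at chr3R:14125494-14125838 in build dm6, had a pooled signal of 484.2 and rank 233, with its summit 90 bp upstream of the TSS. The summit ranked 238 in replicate 1 (signal 222.8) and 263 in replicate 3 (signal 261.0). The divergent gene 140up starts 243 bp upstream of Polr2B on the other strand, so the summit lies between the start sites of both genes and nearer to that of Polr2B. Polr2F, a small subunit shared by polymerases I, II and III, had the next strongest peak at chr3R:5371597-5371862. Its pooled signal was 442.1 and its rank 293, with rank 246 in replicate 1 (signal 217.6) and 357 in replicate 3 (signal 226.3). The summit lay 67 bp upstream of Polr2F, within the 3' UTR of the neighbouring gene CG31542.

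Polr2J, a subunit that takes part in polymerase assembly, had a peak at chr2L:17410372-17410755 with a pooled signal of 260.1 and rank 910. It ranked 1192 in replicate 1 (signal 105.7) and 849 in replicate 3 (signal 151.3), 158 bp upstream of Polr2J but 77 bp from the TSS of CG15141. Polr2H, another subunit shared by the 3 polymerases, had its peak at chr3L:21728706-21728837 with a pooled signal of 225.1 and rank 1195. That peak ranked 1518 in replicate 1 (signal 94.4) and 1087 in replicate 3 (signal 133.6), and its summit was 149 bp upstream of Polr2H but only 23 bp from the TSS of CG11247, in the 5' UTR of that gene. Both summits were thus nearer to a neighbour than to the polymerase gene.

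The remaining IDR peaks in this family were weaker. Polr2E, the third shared subunit with an IDR peak, at chr2R:10898982-10899365, had a pooled signal of 146.3 (rank 2751), 63.5 in replicate 1 (rank 3340) and 89.7 in replicate 3 (rank 2348), with the summit 114 bp upstream. Polr2C, the partner of Polr2J in the polymerase, had a pooled signal of 129.9 (rank 3354), 61.8 in replicate 1 (rank 3501) and 70.2 in replicate 3 (rank 3652). Its summit lay 128 bp upstream of Polr2C and 104 bp from the nearest other TSS. By role, 3 of the 7 subunits particular to polymerase II and 3 of the 5 shared subunits had an IDR summit (42.9% and 60%, with intervals of 9.9% to 81.6% and 14.7% to 94.7% that both hold the 26.9% of all genes). The 13th gene, Polr2M, is not a core subunit.

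The largest subunit, Polr2A, carries the C-terminal repeat domain that is phosphorylated during transcription, and it gave a different picture from Polr2B. It had no summit within 1 kb in the IDR, pooled or replicate 1 lists. In replicate 3 it had a summit 165 bp upstream with a signal of 81.8 and rank 2774. Polr2I had a pooled peak below the IDR set (signal 92.6, rank 5695), as did Polr2G of the Rpb4/Rpb7 stalk (39.2, rank 17552) and Polr2K (33.3, rank 21203). Polr2D, the other stalk subunit, Polr2L and Polr2M had no summit in any of the 4 lists. The polymerase genes therefore ran from among the 250 strongest peaks of the pooled list to none in any list.

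The sequences under 7 strong or shared summits are printed as examples. They show which of the searched letters lie at the summit and how rich in A and T it is. They come from the RefSeq copy of the dm6 assembly and read 5′ to 3′ on the strand of the gene. Each covers 50 bases either side of the IDR summit, or for MED30, which has none, of the replicate 1 summit. That of Taf10b was shortened to 64 bases around its start site and that of Taf10. Capitals mark any of 8 searched sites of 6 bases, on either strand. TATCGA is the core of the element bound by the factor DREF, and GGTCAC is part of another common core promoter element. CAGCTG is an E-box and TATAAA the usual TATA box. The Trithorax-like protein binds GAGAGA, and homeodomain proteins bind TAATTG and the related TAAACG. The eighth site, CGATAG, can share letters with TATCGA on either strand, as it does in Taf10b, so those counts are not independent. The windows are Polr2F at chr3R:5371678-5371778 (plus strand), TfIIA-S at chr3R:23891073-23891173 (minus), MED17 at chr3R:18188932-18189032 (plus), Polr2B at chr3R:14125651-14125751 (plus), MED27 at chr3R:5654974-5655074 (plus), MED30 at chr3L:654227-654327 (minus) and Taf10b at chr2L:2767836-2767899 (minus). MED30 and Taf10b were added after their values were seen.
Polr2F: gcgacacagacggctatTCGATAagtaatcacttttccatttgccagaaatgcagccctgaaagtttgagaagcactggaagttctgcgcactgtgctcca
TfIIA-S: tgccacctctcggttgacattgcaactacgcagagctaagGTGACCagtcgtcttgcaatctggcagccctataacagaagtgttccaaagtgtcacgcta
MED17: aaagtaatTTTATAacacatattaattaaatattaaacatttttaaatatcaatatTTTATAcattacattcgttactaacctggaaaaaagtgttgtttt
Polr2B: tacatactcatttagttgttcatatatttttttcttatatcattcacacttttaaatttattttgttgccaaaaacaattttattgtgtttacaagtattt
MED27: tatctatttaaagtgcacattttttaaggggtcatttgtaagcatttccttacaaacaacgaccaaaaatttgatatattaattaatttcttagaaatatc
MED30: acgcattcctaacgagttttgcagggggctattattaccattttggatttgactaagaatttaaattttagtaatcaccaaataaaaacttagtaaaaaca
Taf10b: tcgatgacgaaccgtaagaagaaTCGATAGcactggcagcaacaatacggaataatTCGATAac

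Polr2F holds TATCGA, TfIIA-S holds GGTCAC, and MED17 holds TATAAA in 2 places. In Polr2B, MED27 and MED30 none of the 8 sites occurs within 50 bases of the summit. A match says only that these letters are present.

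The TfII genes included 1 strong IDR peak and 4 weaker ones. TfIIA-S encodes the small subunit of TFIIA, which stabilises TBP on DNA, and its peak at chr3R:23891010-23891228 had a pooled signal of 413.6 and rank 328. It ranked 399 in replicate 1 (signal 172.0) and 320 in replicate 3 (signal 239.0), with the summit 63 bp upstream and no other gene starting within 1 kb of it. TfIIA-S-2, a second gene for a small TFIIA subunit, had only a replicate 3 summit near the bottom of that list (signal 15.2, rank 29353). The gene of the large TFIIA subunit, TfIIA-L, had no pooled summit, although replicate 1 held one of rank 1353 (signal 99.8) and replicate 3 one of rank 3453 (signal 72.6), 32 bp apart. Of the 3 TFIIA genes, only TfIIA-S thus had an IDR or pooled summit.

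TfIIB, which recruits the polymerase to the promoter, had a peak at chr2L:10430900-10431073 with a pooled signal of 243.6 and rank 1037. The rank was 1820 in replicate 1 (signal 86.7) and 820 in replicate 3 (signal 153.4). The summit was 343 bp upstream of TfIIB and 77 bp from the divergent gene Bug22, so it lay closer to the neighbour. The genes of both TFIIE subunits, which bring TFIIH to the complex, had IDR peaks with no divergent neighbour. TfIIEbeta, at chr3L:4286841-4287224, had a pooled signal of 133.5 (rank 3185), 43.6 in replicate 1 (rank 6249) and 80.8 in replicate 3 (rank 2827), 5 bp upstream of the TSS. TfIIEalpha, at chr3L:11681722-11682105, had a pooled signal of 117.7 (rank 3917), 56.1 in replicate 1 (rank 4138) and 65.3 in replicate 3 (rank 4116), 124 bp upstream.

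TfIIS, an elongation factor that restarts arrested polymerase, was the member with the most distant IDR summit. The peak at chr2L:15061393-15061776 lay 828 bp upstream of TfIIS and 71 bp from the start of vas, a germline helicase gene. Its pooled signal was 154.1 (rank 2484), with rank 1329 in replicate 1 (signal 100.7) and 5635 in replicate 3 (signal 54.0). In replicate 3 the strongest summit of the TfIIS window was another one, 35 bp upstream of the gene (signal 61.4, rank 4573). Both TFIIF genes, whose products escort the polymerase to the promoter, lacked IDR and replicate 1 summits. TfIIFalpha had a pooled signal of 75.2 (rank 7710) and TfIIFbeta 43.3 (rank 15584), the latter with its summit 852 bp downstream of the TSS.

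Among the TAF genes, Taf5 and Taf4 stood above the others. Taf5, a WD40 protein of the TFIID core, had a peak at chr2R:10879754-10879977 with a pooled signal of 334.0 and rank 534. It ranked 619 in replicate 1 (signal 145.0) and 643 in replicate 3 (signal 173.5), 166 bp upstream of Taf5 and 135 bp from the divergent gene Pex6. Taf4, a histone-fold subunit contacted by activators, had its peak at chr3L:16113572-16113764 with a pooled signal of 287.9 and rank 728. It ranked 585 in replicate 1 (signal 148.9) and 1040 in replicate 3 (signal 137.1). The Taf4 summit was 121 bp upstream of an internal start site, within an intron of the gene's longer transcript.

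Taf10 and Taf10b, paired genes for the Taf10 histone-fold subunit, start 45 bp apart on opposite strands and shared 1 IDR peak. That peak, at chr2L:2767683-2768066, had a pooled signal of 126.9 and rank 3481, with rank 3608 in replicate 1 (signal 60.8) and 3848 in replicate 3 (signal 68.2). Its summit was 15 bp upstream of Taf10 and 30 bp upstream of Taf10b, and the replicate summits were 76 bp apart, so the peak cannot be given to either gene. The printed sequence around their start sites holds TATCGA letters at 2 places, 1 of them overlapping CGATAG. Taf13, a histone-fold subunit, had a peak at chr2L:20093849-20094232 with a pooled signal of 137.8 (rank 3027), 62.6 in replicate 1 (rank 3421) and 75.4 in replicate 3 (rank 3218). The summit was 192 bp upstream of Taf13 and 54 bp from the TSS of nesd, within the 5' UTR of nesd. Taf9, also a histone-fold subunit, had the weakest IDR peak of all members (signal 113.7, rank 4144), 54 bp upstream and with no divergent neighbour.

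Partners in the TFIID histone-fold pairs did not always share a state. Taf9 had an IDR summit while its partner Taf6 had no summit in any list. Taf4 had an IDR summit while its partner Taf12 had a pooled one below the IDR set (signal 68.4, rank 8733) and one in each replicate. Taf13 had an IDR summit while its partner Taf11 had a pooled signal of 103.2 (rank 4849), just below the IDR set. Taf7 (88.1, rank 6134), Taf8 (63.9, rank 9563) and Taf3 (60.3, rank 10272) likewise had pooled summits below the IDR set, and summits in both replicates. Taf1, the largest TFIID subunit, and Taf12L, a gene with a Taf12-like symbol, had no summit in any list. For Taf1 the nearest IDR summit was 189727 bp from a TSS, and for Taf12L 108722 bp.

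In Mediator, MED27 had the strongest IDR peak. It lay at chr3R:5654930-5655157 with a pooled signal of 389.4 and rank 383, and ranked 381 in replicate 1 (signal 175.6) and 424 in replicate 3 (signal 209.5). The summit was 115 bp upstream of MED27 and 278 bp separated the gene from the divergent gene elm. MED17, the central subunit of the head module, had its peak at chr3R:18188913-18189124 with a pooled signal of 336.1 and rank 522. It ranked 514 in replicate 1 (signal 154.8) and 576 in replicate 3 (signal 181.9), 90 bp upstream of MED17. MED6, another head subunit, had its peak at chr3R:9767708-9767901 with a pooled signal of 296.4 and rank 686, 907 in replicate 1 (signal 120.7) and 649 in replicate 3 (signal 173.1). That summit was 11 bp from a MED6 start site and 8 bp from one of the divergent gene Naa80, so the genes cannot be told apart at this resolution.

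MED15, a tail subunit contacted by activators, ranked higher in replicate 1 than in replicate 3. Its peak at chr2L:472377-472572 had a pooled signal of 256.7 and rank 934, but ranked 492 in replicate 1 (signal 157.1) and 1754 in replicate 3 (signal 105.2). The summit was 547 bp upstream of MED15 and 266 bp from CG4297. MED7, of the middle module, had a peak at chr3R:10760972-10761355 with a pooled signal of 192.9 and rank 1632, ranking 1093 in replicate 1 (signal 109.8) and 3531 in replicate 3 (signal 71.7), 132 bp upstream. The other 5 IDR peaks of the complex had pooled signals of 166.6 for MED31, 157.5 for MED4, 146.0 for MED16, 145.3 for MED26 and 124.4 for MED24. Of these, the MED31 summit lay 205 bp from MED31 but 80 bp from CG9775, in an intron of that gene. The MED16 summit lay 178 bp from MED16 but 81 bp from CG11170. MED26, on chromosome 4, had the only member IDR summit downstream of the gene's nearest TSS, by 91 bp, in its own 5' UTR.

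By Mediator module, IDR summits occurred at 2 of 7 head genes, 4 of 9 middle genes and 3 of 5 tail genes. These shares are 28.6% (interval 3.67% to 71%), 44.4% (13.7% to 78.8%) and 60% (14.7% to 94.7%), against 26.9% of all genes, which lies within each interval. Of MED27, MED28 and MED30, which join head and tail, only MED27 had one. MED14, the scaffold that runs through the complex, had only a replicate 3 summit (signal 28.5, rank 13710). Pooled summits below the IDR set occurred at MED25 (108.9), MED23 (103.9), MED28 (88), MED1 (85.4), MED19 (85.3), MED10 (78.6), MED8 (69.8) and MED18 (45.6). MED11 and MED20 had only a replicate 3 summit, of rank 28043 and 7453. MED21 and MED22 had none in any list, and the IDR summit nearest to a MED21 TSS was 2020406 bp away. The whole stretch around MED21 thus lacked IDR summits, so that distance is not particular to its promoter. These module counts are too small to order the modules.

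**Figure D2:**
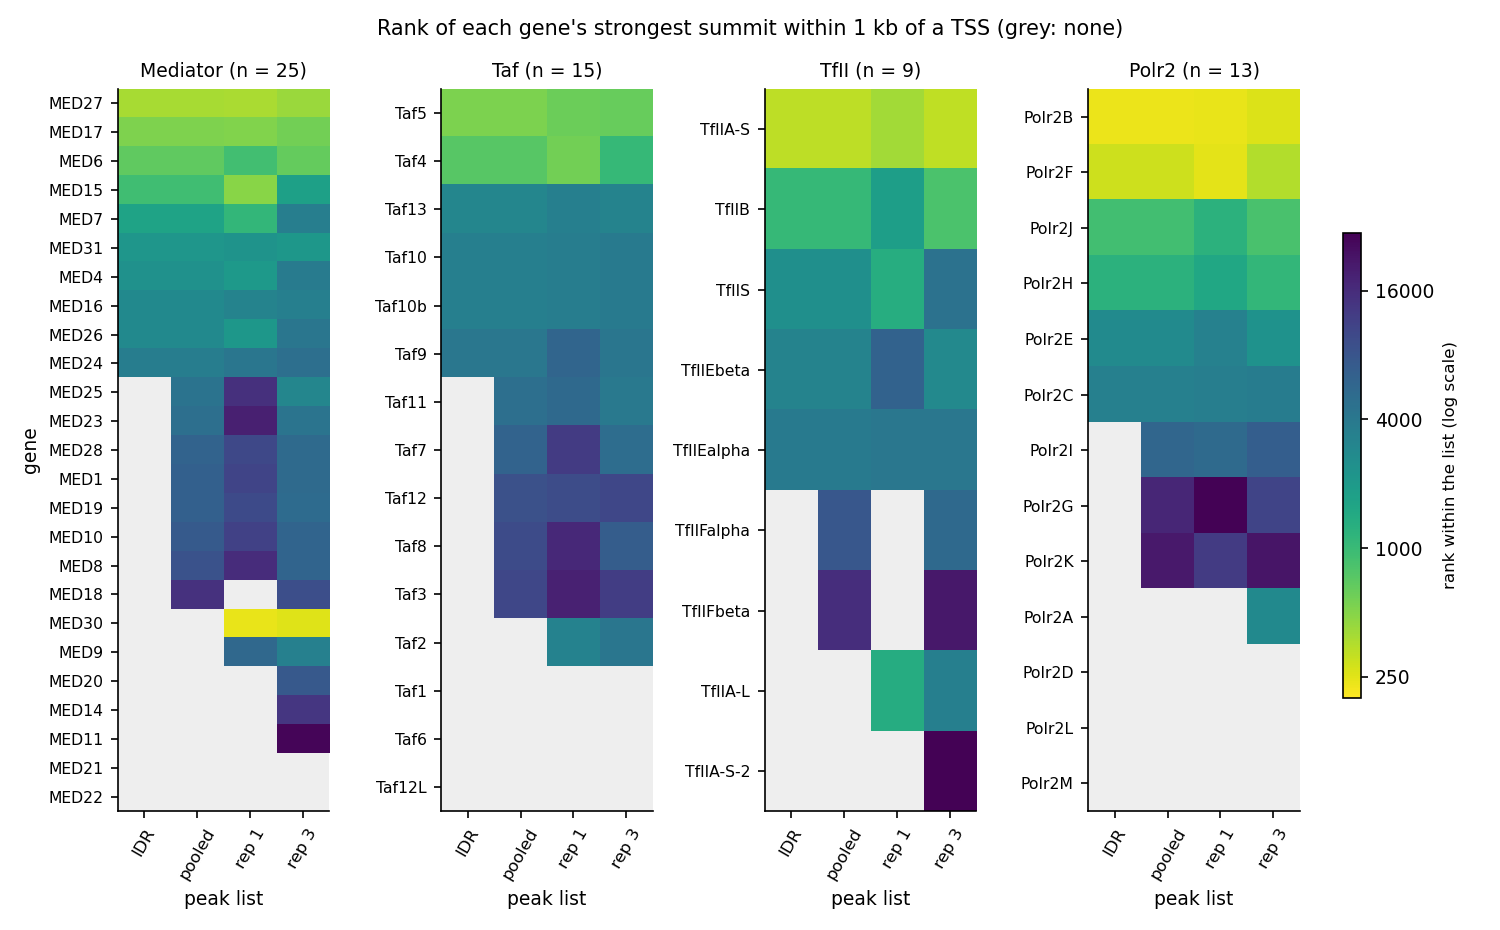
Each row is a gene and each column a peak list, and the colour gives the rank of the gene's strongest summit within 1 kb of a TSS on a log scale, with grey for none. Polr2B, Polr2F, TfIIA-S and MED27 rank high in every list, whereas MED30 is bright in both replicate columns and grey in the IDR and pooled columns.

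MED30 had strong peaks in both replicates that did not return in the pooled list. Replicate 1 had a peak at chr3L:654156-654371 with a signal of 222.9 and rank 237. Replicate 3 had one at chr3L:654150-654384 with a signal of 263.4 and rank 256. The summits were 3 bp apart and lay 188 and 191 bp upstream of MED30, whose divergent neighbour is Rev1. No pooled peak overlapped them, and the nearest pooled summit was 1413 bp from the replicate 1 summit. Of the 377 replicate 1 peaks in its strongest 500 that overlapped a peak in the strongest 500 of replicate 3, this was the 1 peak (0.265%) with no overlapping pooled peak. Among the strongest 4277 of each replicate it was 27 of 3117 (0.866%). MED30 therefore counts among the members with no IDR or pooled summit although both replicates list a strong one, and the cause was not tested.

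Another 3 members had summits in both replicates and none in the pool. Besides TfIIA-L these were Taf2, a promoter-binding TFIID subunit, and MED9 of the middle module. Taf2 had a signal of 64.7 (rank 3230) in replicate 1 and 64.9 (rank 4159) in replicate 3, with summits 49 bp apart. MED9 had 47.4 (rank 5466) and 73.5 (rank 3379), with summits 5 bp apart. The Taf2 summits lay 313 and 362 bp upstream of Taf2, beyond a start of the divergent gene CalpB 79 bp upstream. The MED9 summits lay 67 and 62 bp upstream of MED9, whose divergent neighbour Nup75 starts 115 bp upstream. Those of TfIIA-L lay inside that gene, upstream of an internal start site, and pll also has a TSS within 1 kb. Summits in both replicates and none in the pool occurred at 4 of the 62 members, or 6.45%, and at 1.57% of all genes.

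Over the full lists, 45 members (72.6%) had a pooled summit, against 57.3% of all genes. Replicate 1 had 46 members (74.2%), against 58.9% of all genes. Replicate 3 had 54 (87.1%), against 60.2% of all genes. The difference between the replicates came from 8 genes with a replicate 3 summit and no replicate 1 summit, which were MED11, MED14, MED18, MED20, TfIIFalpha, TfIIFbeta, TfIIA-S-2 and Polr2A. No member had a summit in replicate 1 alone. Among all genes, 6.01% had a summit in replicate 1 and not 3, and 7.32% in 3 and not 1. Of the 18 members with a pooled summit below the IDR set, 15 had one in both replicates, and 12 of those 15 ranked higher in replicate 3. These ranks belong to the strongest summit of each list in the window, which was not always the same peak. At Polr2K it lay 787 bp upstream in replicate 1 and 374 bp downstream in replicate 3, and at MED19 559 bp upstream and 187 bp downstream. These counts were not made over all genes. The number of reads in each library is unknown, and its part in the difference between the replicates was not tested.

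At the 26 distinct IDR peaks, the replicates ranked members in a similar order. All 26 were matched in both replicate lists, 15 ranking higher in replicate 1 and 11 higher in replicate 3. Spearman's rho between the ranks was 0.776, given as a description over 26 peaks that share 1 control alignment. The IDR set keeps peaks that hold their rank between these same replicates. Agreement at the 26 peaks is therefore partly set by their selection and does not extend to members outside the set. Replicate summits were a median of 19 bp apart and at most 81 bp. Each replicate held 24 of the 26 among its strongest 4277 peaks, and 22 were in both. The IDR boundary fell between Taf9 (113.7), TfIIEalpha (117.7) and MED24 (124.4) inside and MED25 (108.9), MED23 (103.9) and Taf11 (103.2) outside. Replicate 1 gave MED25 a signal of 24.2 (rank 15039) and replicate 3 one of 78.2 (rank 3000), so the first gene outside the boundary differed widely between replicates.

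**Figure D3:**
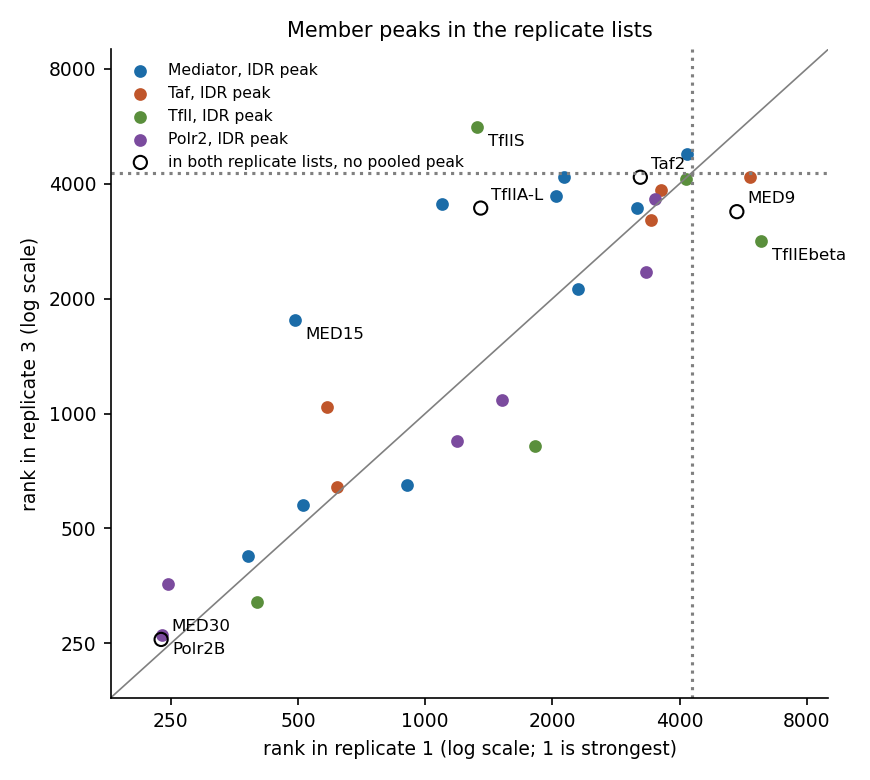
Each point is a member peak, placed by its rank in replicate 1 (x axis) and in replicate 3 (y axis), both on log scales with 1 the strongest. The line marks equal ranks and the dotted lines mark rank 4277. MED30 (open circle) lies beside Polr2B near rank 250, while TfIIS and MED15 lie farthest from the line.

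The IDR peaks at these genes were of ordinary strength for promoter peaks. Their median pooled signal was 179.8 and their median rank 1898, against 174.7 and 1987 for all 3098 IDR peaks with a summit within 1 kb of a TSS. By complex the median signal was 242.6 for Polr2, 179.8 for Mediator, 154.1 for TfII and 137.8 for Taf. Distances were taken in 2 ways, each alike for members and background. From a gene's own nearest TSS the median was 121 bp over the 27 genes and also 121 bp over all 3761 genes with an IDR summit, and 24 of the 27 (88.9%) lay within 250 bp, against 72.6%. From the nearest TSS of any gene the median was 80.5 bp over the 26 peaks, against 94 bp over all 3098, and 25 of 26 (96.2%) lay within 250 bp, against 78.2%. Beyond 250 bp of their own TSS were TfIIB, MED15 and TfIIS, and outside the 1 kb window the nearest IDR summit to a member without one was at 1473 bp, for Taf12.

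Summits lay on the upstream side of the member's own nearest TSS for 26 of the 27 genes, or 96.3% (interval 81% to 99.9%). The share was 83.2% of the 3761 genes, which lies within that interval. Measured from the member's outermost TSS, 23 of the 26 distinct peaks were upstream, and those of MED6, Taf4 and MED26 were downstream. That measure was not taken over all genes. Placed by the nearest TSS of any gene, 23 of the 26 peaks were upstream, or 88.5% (interval 69.8% to 97.6%), against 76.2% of all 3098, a share within that interval. The summits fell outside protein-coding gene models for 20 of the 27 genes, in a 5' UTR for 4, in an intron for 2, in a 3' UTR for 1 and in coding sequence for 0. Non-coding genes were not looked at. This breakdown was not made over all genes, so it sets no trait of the members apart.

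**Figure D4:**
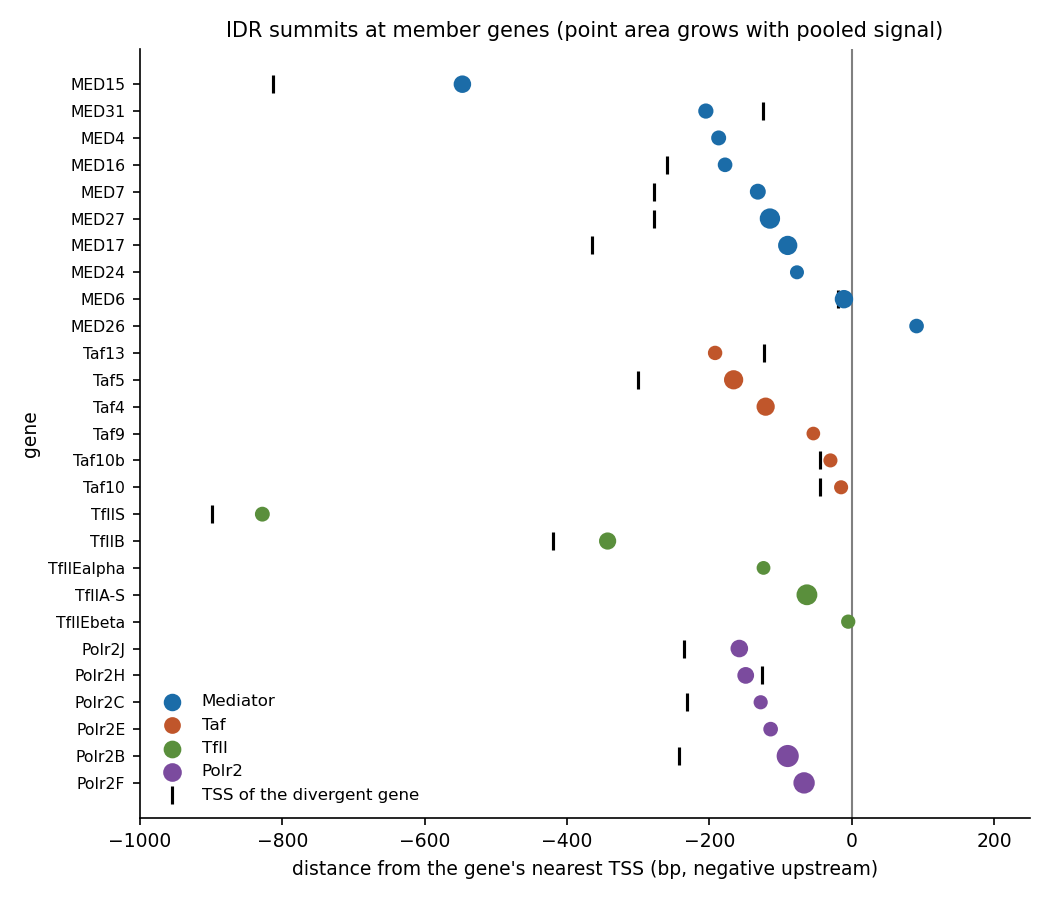
Points give the position of each IDR summit relative to the nearest TSS of the gene named on the y axis, in bp with negative values upstream, and the area of a point grows with its pooled signal. Black marks give the TSS of a divergent neighbour where it lies within the plotted range. All summits but that of MED26 are upstream, and those of MED31, Taf13 and Polr2H lie beyond the neighbour's TSS.

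Many of these genes have close divergent neighbours, which bears on how a summit is assigned. Another gene started within 1 kb upstream on the opposite strand at 44 of the 62 members (71.0%), against 36.2% of all protein-coding genes. In that layout 18 of 44 members (40.9%, interval 26.3% to 56.8%) had an IDR summit, against 44.7% of all such genes. Without such a neighbour it was 9 of 18 members (50%, interval 26% to 74%), against 16.9% of all such genes. So the member share was near the background among genes with a divergent neighbour and above it among the others, where it rests on 9 genes. These are MED4, MED24, MED26, Taf9, TfIIA-S, TfIIEalpha, TfIIEbeta, Polr2E and Polr2F.

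**Figure D5:**
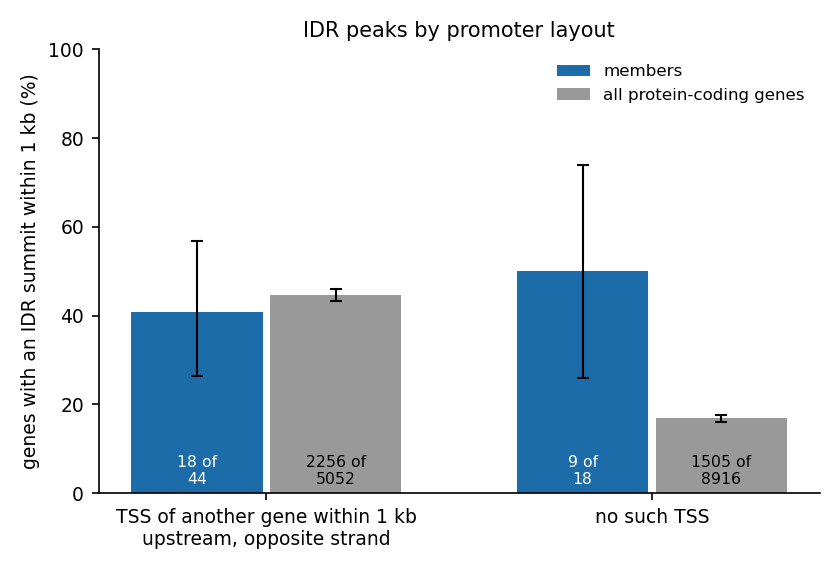
Bars give the percentage of genes with an IDR summit within 1 kb, for genes with and without another gene's TSS within 1 kb upstream on the opposite strand, and error bars are exact 95% intervals for counting. Members and all genes are close at 40.9% and 44.7% with a neighbour, and stand at 50% and 16.9% without one.

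The summit was within 1 kb of another protein-coding gene's TSS for 17 of the 27 genes, and for 12 the nearest TSS belonged to another gene. These 2 counts were not made over all genes. When each peak was given only to the gene of its nearest TSS, 15 members kept one, or 24.2%, against 19.5% of all genes. Over all genes the number with an IDR summit went from 3761 to 2727. The counts were then 6 for Mediator and 3 each for Taf, TfII and Polr2. The members also differed from the annotation as a whole in size and structure. Their median gene length was 1251.5 bp, against 2164.5 bp, and 90.3% had 1 annotated TSS, against 73.5%. Among all genes with 1 TSS, 21.1% had an IDR summit, and among such members 42.9%. By chromosome arm the member count was 8 of 11 on 2L (interval 39% to 94%, with Taf10 and Taf10b sharing 1 peak), 3 of 7 on 2R, 6 of 15 on 3L, 8 of 21 on 3R, 1 of 2 on 4 and 1 of 6 on X. Over all genes the arms ran from 23.5% on X to 36.2% on 4, leaving out Y, which has no member, and 2L stood at 27.1%.

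The bases around the member summits were rich in A and T. Mean GC content within 50 bases of the summit was 33.5% ± 11.7 (SD, n = 26 peaks), against 39.6% ± 10.5 (SD, n = 3098) for all IDR promoter peaks. It was below the median of all such peaks, 39.6%, in 18 of 26. The range ran from 15.8% at Taf5, 16.8% at MED17 and 19.8% at Polr2B to 59.4% at MED6. The mean was 40.8% for the TfII peaks and between 30.9% and 32.5% for the other complexes. Standard deviations within a complex were 9.27 to 13.5 percentage points, so the complexes overlapped in GC content.

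For each of the 8 searched sites, the share at all IDR promoter peaks lay within the wide exact interval of the members. TATCGA occurred within 50 bp of 4 of 26 summits (15.4%, interval 4.36% to 34.9%), at Taf9, Taf10 with Taf10b, TfIIS and Polr2F. All IDR promoter peaks had it at 15.7%, and the 8671 promoter peaks of the pooled list that overlap no IDR peak at 8.4%. TATAAA occurred at 6 summits (23.1%), namely MED17, Taf5, Taf10 with Taf10b, Taf13, TfIIS and Polr2H, against 16.4% of all IDR promoter peaks. The homeodomain-type letters TAATTG occurred at MED7, MED31 and Taf4 (11.5%, interval 2.45% to 30.2%), against 8.59%. TAAACG, another homeodomain-type sequence, and the Trithorax-like site GAGAGA occurred at none of the 26, which allows up to 13.2%, against 5.26% and 3.94%. CGATAG was found at 2 summits (against 12.6%), GGTCAC at 1 (5.75%) and CAGCTG at 1 (7.2%).

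Genes that work with these complexes under other symbols were counted in the same way. Of the 4 genes of the Mediator kinase module, skd (296.4, rank 685) and Cdk8 (145.2, rank 2790) had IDR summits (50%, interval 6.76% to 93.2%). In the TBP family 1 of 3 did (33.3%, interval 0.84% to 90.6%). This was Trf2, with a signal of 770.8 and rank 78, 728 bp downstream of its TSS. Against 26.9% of all genes, TFIIH genes had IDR summits at 6 of 10 (60%, interval 26.2% to 87.8%), led by Ssl1 (657.5, rank 113), Tfb4 (178.7) and Tfb5 (153.1). The counts were 10 of 16 (62.5%, 35.4% to 84.8%) for the coactivator SAGA, led by Ada2b (345.3), Gcn5 (310.0) and Sgf29 (305.2), and 8 of 15 (53.3%, 26.6% to 78.7%) for pausing and elongation factors, led by Nelf-E (754.9), Ctr9 (317.5) and Nelf-A (260.2). The 26.9% of all genes lies within each of these intervals but that of SAGA, and no list was tested.

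Among genes particular to polymerases I and III the count was 5 of 17 (29.4%, interval 10.3% to 56.0%), led by Polr3E (405.7), Polr1E (157.7) and Polr3G (130.0). That share is near the 26.9% of all genes, but its interval overlaps that of the Polr2 genes. None of the 4 testis TAF homologues matched by symbol had an IDR summit, which allows a share of up to 60.2%. Trf2, Nelf-E and Ssl1 had a higher signal than any of the 62 members, whose highest was 484.2 at Polr2B.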

How the data were processed

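ChIP-seq peak lists of 2 biological replicates of B-H2-GFP embryos were used in dm6 coordinates, per the labels. For the calling software and the IDR threshold, nothing was given in the sources used here. The signal value of each peak was deposited by the authors and served to order peaks inside their own list. The deposited −log10 q-value was checked and ranked nothing. Read depth is unknown. Summits were placed against TSSs of protein-coding genes in Ensembl release 115 (BDGP6.54), with 1000 bp as the window. Shares carry exact Clopper-Pearson intervals and no test, since peak lists of 1 group allow none between conditions. The members, complexes, companion lists and sites were chosen with earlier results of these data known. Every member with an IDR summit was named, in full for the 5 of highest signal per complex, as were members at the edges of the threshold and window, and the 3 strongest companions per list. The companion symbols Tfb2, rye, Paf1 and Spt4 matched no protein-coding symbol in the annotation. Matching was by symbol only, so a gene annotated under another name was not counted in its companion list. Replicate peaks were matched by an overlap of 1 bp. Alternatives covered the window, TSS choice, peak strength, each replicate and the site window. The software was Python 3.11.15 with pandas 2.3.3, scipy 1.17.1, numpy 2.4.6 and, for plots, matplotlib 3.10.9, and the summit search was tested on simulated data.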

Additional observations from a re-analysis of the deposited data

How the results depend on the processing

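Of 71 alternative values, 56 stayed within 1.5 times the value reported. With only the nearest TSS counted, 15 members had an IDR summit, with 6 for Mediator and 3 each for Taf, TfII and Polr2. With only IDR peaks at or above the median signal, the count was 13 members (21.0%, against 16.4% of all genes), with 5 for Mediator, 2 for Taf and 2 for TfII, and 2287 over all genes. Fewer peaks or start sites enter by construction in both settings. The TfII count was 3 within 250 bp, and 3 when a strong peak was required in both replicates. Each replicate alone gave 28 to 32 members, against 27, and 46 to 54 against 45 in the pooled list. TATCGA was found at 8 of 26 peaks within 100 bp and at 1 within 25 bp, and CGATAG in its place at 2. In all 10 alternatives for peaks at TSSs the share of members was above that of all genes. These settings reuse the same genes and overlapping peaks, so they are not independent. With the nearest TSS only, the shares were 24.2% and 19.5%, and no interval was computed for the alternatives. Among genes with a divergent neighbour the member share was 40.9%, against 44.7% of all such genes. No paired analysis was possible because there is 1 group and nothing to pair it with. Peak lists without read counts set no limit of detection, so a gene with no summit is only one with no listed peak.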
